A study of Mus musculus with 6 samples.

Results

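The genes described here are 7 that are widely used as markers of cerebellar neurons: Pcp2, Calb1, Gabra6, Neurod1, Cbln1, En2 and Gng13. They were taken by name, as every non-control probe whose gene name in the scanner files equals one of them, and this gave 10 probes for 7 genes out of 56589 probes for 37318 genes. They were chosen by their levels on these same arrays, where earlier results showed them far from the unexposed cochlea on several arrays. The levels below are therefore a description of the arrays, and no test was made on them. The label names a cell type and not the tissue collected, which was cochlea on all 6 arrays, so the genes are called cerebellar only for where they are best known.

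The study measured cochlear RNA of female C57BL/6 mice aged 6 weeks, with 1 one-colour array for each of 6 groups. In the noise only group the mice were exposed to noise for 2 h and received neither drug nor saline, and the labels do not say when they were collected. Noise of the same length was followed by an intraperitoneal injection of the synthetic glucocorticoid dexamethasone (10 mg/kg) with collection 12 h or 24 h later, or by saline with collection at the same 12 h or 24 h. The baseline group had neither noise nor injection. The design text gives 6 mice for each group, and nothing says how their RNA was combined, so the spread between mice cannot be seen and no value below has a replicate error.

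Each level is the processed signal of the scanner software, which is background-subtracted. Folds and log2 differences were computed after each array was scaled to its own 75th percentile, which lay between 537 and 679 signal units. The error given with a fold is the software's spot error, as a 95% interval, and it covers the reading of the spots and not the mice. A gene counts as measured when its brightest probe was well above background on both arrays compared, and 2-fold is the size used for counting. The baseline, noise only and 24 h arrays shared a slide and a scan, while both 12 h arrays shared another, so the 2 arrays of a 12 h comparison with baseline differ in slide as well as in group and the 2 cannot be told apart. Of the markers of the labelled tissue, 14 of 14 spiral ganglion neuron genes and 13 of 14 hair cell genes were well above background on every array, and the remaining hair cell gene, the outer hair cell motor Slc26a5, on 0 of 6.

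Purkinje cells are the large inhibitory output neurons of the cerebellar cortex, and granule cells are the small excitatory neurons that contact them through parallel fibres. Granule cells secrete the cerebellin Cbln1, which organises their synapses onto Purkinje cells, and they carry GABA-A receptors that contain the alpha6 subunit. The cerebellum lies against the temporal bone that holds the cochlea. Some of the 7 genes have known roles outside it: Neurod1 is needed for the sensory neurons of the mouse inner ear to form, Gng13 serves taste and olfactory receptor cells, Pcp2 is made in retinal bipolar cells, and Calb1 is abundant in kidney.

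The values of each gene come from its brightest probe, and the first 30 of its 60 bases are printed so that a reader can see what was hybridised. The probes lie, in the mm9 build of the file's annotation, at chr8:3623377-3623436 on the minus strand for Pcp2, chr4:15832543-15832602 on the plus strand for Calb1, chr11:42120087-42120146 on the minus strand for Gabra6, chr2:79292819-79292878 on the minus strand for Neurod1, chr8:89993362-89993421 on the minus strand for Cbln1, chr5:28498468-28498528 on the plus strand for En2 and chr17:25855911-25855970 on the plus strand for Gng13. An mm9 annotation was not used here, so exon and UTR positions are not given.
Pcp2 probe: gttctagccatcctgggcctcccactggcc
Calb1 probe: tatgtctgattctatgcctatatttccaag
Gabra6 probe: tgcatatgtacatagctttagttatgctgc
Neurod1 probe: gtttgtaatcctgtgtattatggtgttatg
Cbln1 probe: caaggaggttcttcgggacgcttcttcttc
En2 probe: ttgtaatttaagagtctgtgaataaccatc
Gng13 probe: cttcctgaacccagacctgatgaagaacaa

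The promoters of a Purkinje marker, Pcp2, and a granule cell marker, Gabra6, are set side by side. The E-box CANNTG, which basic helix-loop-helix factors such as Neurod1 recognise, is in capitals. Neurod1, a granule cell marker further above baseline than Gabra6 after noise only, and Gng13 were matched as well, and their windows are not printed. RefSeq promoters (GRCm38.p6) were matched for 4 of the 7 genes, and the 250 bases before the start are shown for the outermost of 4 Pcp2 starts, at chr8:3625548-3625797 on the minus strand, and for the single Gabra6 start, at chr11:42321073-42321322 on the minus strand.
Pcp2 promoter: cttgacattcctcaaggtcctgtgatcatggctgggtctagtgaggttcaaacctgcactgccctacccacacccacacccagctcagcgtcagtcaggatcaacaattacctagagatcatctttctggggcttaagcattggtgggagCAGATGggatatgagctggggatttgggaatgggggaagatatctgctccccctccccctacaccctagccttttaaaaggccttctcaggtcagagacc
Gabra6 promoter: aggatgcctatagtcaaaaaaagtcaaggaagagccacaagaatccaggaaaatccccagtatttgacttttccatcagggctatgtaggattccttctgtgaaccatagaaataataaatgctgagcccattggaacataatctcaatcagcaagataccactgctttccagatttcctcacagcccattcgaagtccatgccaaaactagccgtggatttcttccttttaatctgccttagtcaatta

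The Pcp2 window held 1 E-box and the Gabra6 window held 0, on either strand, and the motif reads the same class of letters on both strands. An E-box was present in 66.22% of all 32851 promoter windows of this length, so its presence in a window separates few genes. The Pcp2 E-box read CAGATG, which is CATCTG on the other strand, and that form was present in 14.44% of all windows. The homeodomain core TAATTA, searched for because En2 is a homeodomain protein, was absent from both printed windows and present in 4.84% of all windows. The sequence CAATTA, which differs from it in the first base, stands in both printed windows and was not counted over all windows. Of the other Pcp2 starts, the window at chr8:3625283-3625532 held 1 TAATTA and 2 E-boxes. The Neurod1 window, which is not printed, held 1 E-box, with a GC content of 67.6%. Each of the Gng13 windows held 2 E-boxes, with a GC content of 58.8% at the outermost start and 69.2% at the other. The GC content was 52.8% in the Pcp2 window and 40.8% in the Gabra6 window, against a median of 52.4% over all windows. Whether these sequences bear on the levels of the genes was not tested.

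All 7 genes were brightest in the noise only cochlea, and in all 7 the noise only array and both 12 h arrays formed the upper group, separated from the remaining arrays by more than the spot error. Their levels at 24 h and at baseline were all lower, and in 5 of the 7 the lowest array was dexamethasone at 24 h. In tissue RNA, fewer cells of a type and less RNA per cell cannot be told apart, and this holds for each level below.

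Pcp2 encodes a GoLoco protein of Purkinje cells that acts on inhibitory G proteins. Its signal was 25511 on the noise only array, 17681 with dexamethasone and 17554.5 with saline at 12 h, 1026 with dexamethasone and 2986 with saline at 24 h, and 774 at baseline. The 3 bright arrays lay within a narrow band, and the saline array at 24 h stood alone between them and the 2 lowest. The level was 31.2-fold that of baseline after noise only (interval 23.7 to 41.2), the widest difference of the 7 genes.

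Calb1 encodes calbindin, an EF-hand calcium buffer abundant in Purkinje cells. The signal of its brightest probe was 9401 after noise only, 7087 with dexamethasone and 5609 with saline at 12 h, 2748 with dexamethasone and 3343 with saline at 24 h, and 2433 at baseline. The order of the arrays was that of Pcp2 at the low end, with smaller steps, and neither the 2 arrays at 24 h nor dexamethasone at 24 h and baseline differed by more than the spot error. Noise only was 3.66-fold above baseline (interval 2.78 to 4.83).

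Calb1 also had a pair of other probes, both well above background on all arrays. One of them had signals of 2286 after noise only, 1378 with dexamethasone and 947 with saline at 12 h, 541 with dexamethasone and 709 with saline at 24 h, and 418 at baseline. The dimmest had signals of 206 after noise only, 143 with dexamethasone and 114 with saline at 12 h, 61.3 with dexamethasone and 78.3 with saline at 24 h, and 51.9 at baseline. All 3 Calb1 probes placed the 6 arrays in the same order, and their log2 differences of noise only from baseline were 1.87, 1.91 and 2.38.

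Gabra6 encodes the alpha6 subunit of the GABA-A receptor, which in the cerebellum is made by granule cells. Its signal was 3094 after noise only, 2135 with dexamethasone and 1654 with saline at 12 h, 142 with dexamethasone and 399 with saline at 24 h, and 310.3 at baseline. Here baseline was not the lowest array: dexamethasone at 24 h lay 2.10-fold under it, beyond the spot error. Noise only was 9.45-fold above baseline (interval 7.15 to 12.5).

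Neurod1 encodes a basic helix-loop-helix factor of differentiating neurons that granule cells keep into adulthood. Its signal was 4325 after noise only, 2881 with dexamethasone and 1953 with saline at 12 h, 188 with dexamethasone and 626 with saline at 24 h, and 289 at baseline. The arrays kept the order seen for Gabra6, and dexamethasone and saline at 12 h differed by more than the spot error for this gene alone among the 7. Noise only was 14.2-fold above baseline (interval 10.7 to 18.8).

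Cbln1, the cerebellin of granule cells, had a signal of 13611 after noise only, 8934 with dexamethasone and 8504 with saline at 12 h, 2189.7 with dexamethasone and 3203 with saline at 24 h, and 3249 at baseline. Saline at 24 h and baseline did not differ by more than the spot error, while for each of the other 6 genes they did. Its level after noise only was 3.97-fold that of baseline (interval 3.01 to 5.24). A dimmer Cbln1 probe had signals of 195 after noise only, 197 with dexamethasone and 129.7 with saline at 12 h, 42.0 with saline at 24 h and 71.1 at baseline, and it was not well above background with dexamethasone at 24 h, where the brighter probe was also at its lowest. The order of the arrays differed between the 2 probes. Relative to baseline on the log2 scale, the dimmer had 1.38 after noise only, 1.6 with dexamethasone and 1.13 with saline at 12 h and -0.68 with saline at 24 h, while the brighter had 1.99 after noise only, 1.59 with dexamethasone and 1.65 with saline at 12 h and 0.06 with saline at 24 h. The dimmer probe thus put dexamethasone at 12 h on top, and both put noise only and the 12 h arrays above the rest.

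En2 encodes a homeodomain factor that patterns the midbrain and cerebellum and stays on in granule cells. Its signal was 3012 after noise only, 1942 with dexamethasone and 1682 with saline at 12 h, 127 with dexamethasone and 547 with saline at 24 h, and 159 at baseline. Dexamethasone at 24 h and baseline shared the low end within the spot error, and saline at 24 h stood clearly above both. The level after noise only was 18.0-fold that of baseline (interval 13.6 to 23.8).

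Gng13 encodes a G protein gamma subunit known from taste and olfactory cells and also made by cerebellar neurons. Its signal was 16389.8 after noise only, 11291 with dexamethasone and 12629 with saline at 12 h, 949 with dexamethasone and 2546 with saline at 24 h, and 1489.8 at baseline. The 3 bright arrays did not differ from their neighbours by more than the spot error, and each step below them did. Noise only was 10.4-fold above baseline (interval 7.90 to 13.8).

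**Figure D1:**
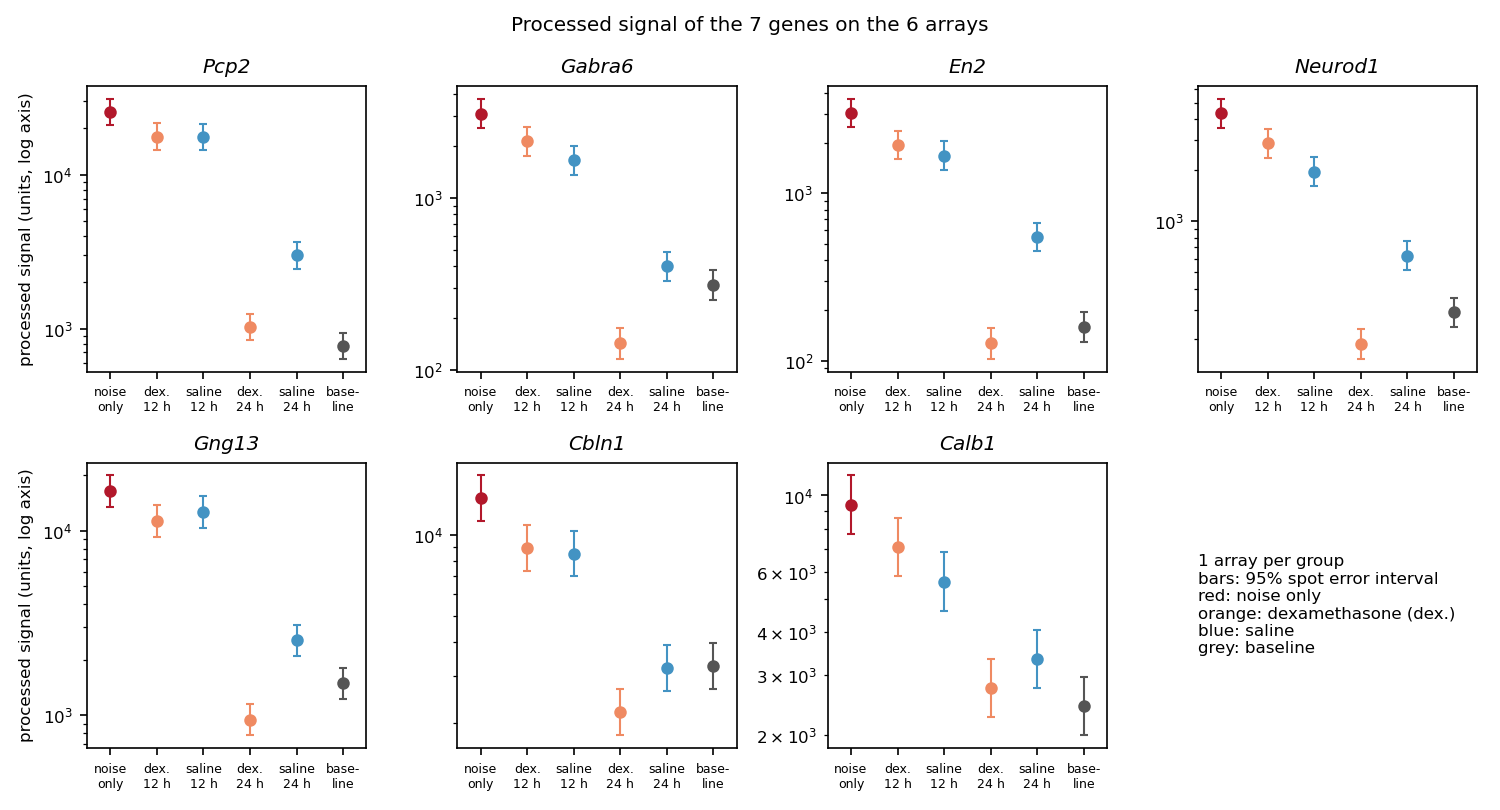
Processed signal (log axis) of the brightest probe of each of the 7 genes on the 6 arrays, each point 1 array with its spot error interval. Noise only and both 12 h arrays lie at the top for every gene, for example 25511, 17681 and 17554.5 for Pcp2, and baseline or dexamethasone at 24 h at the bottom.

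Over the 6 arrays the scaled level of Pcp2 spanned 4.96 on the log2 scale, and 28 of the 22460 genes measured on all arrays spanned more. The ranges were 4.43 for En2, 4.38 for Neurod1, 4.31 for Gabra6 and 3.97 for Gng13, with 42, 46, 51 and 76 genes spanning more. Cbln1 spanned 2.50, with 345 genes above it, and Calb1 spanned 1.87, with 935 above it. The median range over all these genes was 0.63, so even the least variable member varied more than most of the array, which follows from how the set was proposed.

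After noise only, 7 of 7 genes were at least 2-fold above baseline, beside 2.64% of the 24161 genes measured on both arrays, and 0 were at least 2-fold below it, beside 3.17% of those genes. The median log2 difference of the 7 was 3.38 and that of all genes was -0.01. This contrast was in view when the genes were proposed, so nothing is read from the count. The same holds for the following comparisons with baseline, which share the baseline array.

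At 12 h, 7 of 7 genes were at least 2-fold above baseline with dexamethasone (4.55% of all genes measured were) and 7 of 7 with saline (4.41% were). With spike-in scaling the saline count was 5 of 7, as Calb1 came to 0.67 and Cbln1 to 0.86 on the log2 scale, and 0.984% of all genes were at least 2-fold above baseline. None lay 2-fold below it, where 2.65% of all genes did with dexamethasone and 3.42% with saline. The median log2 difference from baseline was 3.05 with dexamethasone and 3.02 with saline. Pcp2 was 25.0-fold above baseline with dexamethasone and 27.2-fold with saline, and Calb1 was 3.18-fold above it with dexamethasone and 2.76-fold with saline. En2, at 13.4-fold with dexamethasone and 12.7-fold with saline, was the second highest under both injections.

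At 24 h the genes were split by injection. With dexamethasone, 0 of 7 genes were at least 2-fold above baseline (1.31% of all genes were) and 1, Gabra6, was at least 2-fold below (2.02% were), with a median of -0.51. With saline, 3 of 7 were at least 2-fold above baseline (1.72% of all genes were), namely Pcp2 at 4.07-fold, En2 at 3.63-fold and Neurod1 at 2.29-fold, with a median of 0.85. With saline 0 of 7 were at least 2-fold below baseline, beside 1.71% of all genes. The other 4 genes had saline levels of 1.80-fold for Gng13, 1.45-fold for Calb1, 1.36-fold for Gabra6 and 1.04-fold for Cbln1, against baseline.

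The comparison of dexamethasone with saline asks what the drug changed beyond an injection after noise, and each time point lies on 1 slide. At 12 h, 0 of 7 genes differed by 2-fold in either direction, where 1.67% of 24179 genes lay 2-fold or more above saline and 1.88% as far below. The log2 differences of dexamethasone from saline were 0.43 for Neurod1, 0.24 for Gabra6, 0.21 for Calb1, 0.08 for En2, -0.06 for Cbln1, -0.12 for Pcp2 and -0.29 for Gng13. Only that of Neurod1 exceeded the spot error, and the median of the 7 was 0.08. The signs of Cbln1, Pcp2 and Gng13 turned positive under spike-in scaling, at 0.24, 0.18 and 0.01. Those of Cbln1 and Pcp2 also did under quantile normalization, at 0.05 and 0.14, and under normexp with quantile normalization, at 0.05 and 0.09. With the mean over probes Cbln1 came to 0.21.

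At 24 h all 7 genes were lower with dexamethasone than with saline, and 5 of 7 by at least 2-fold (1.53% of 22710 genes measured were), while 0 were at least 2-fold higher (1.63% were). En2 was 4.37-fold lower, Neurod1 3.36-fold, Pcp2 2.95-fold, Gabra6 2.85-fold and Gng13 2.72-fold. Cbln1 was 1.48-fold lower, beyond the spot error, and Calb1 1.23-fold lower, within it. The median log2 difference was -1.51, against -0.00 for all genes. The other probes had log2 differences of -0.37 and -0.41 for Calb1, and the dimmer Cbln1 probe one of -1.14 whose lower side was not well above background.

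**Figure D2:**
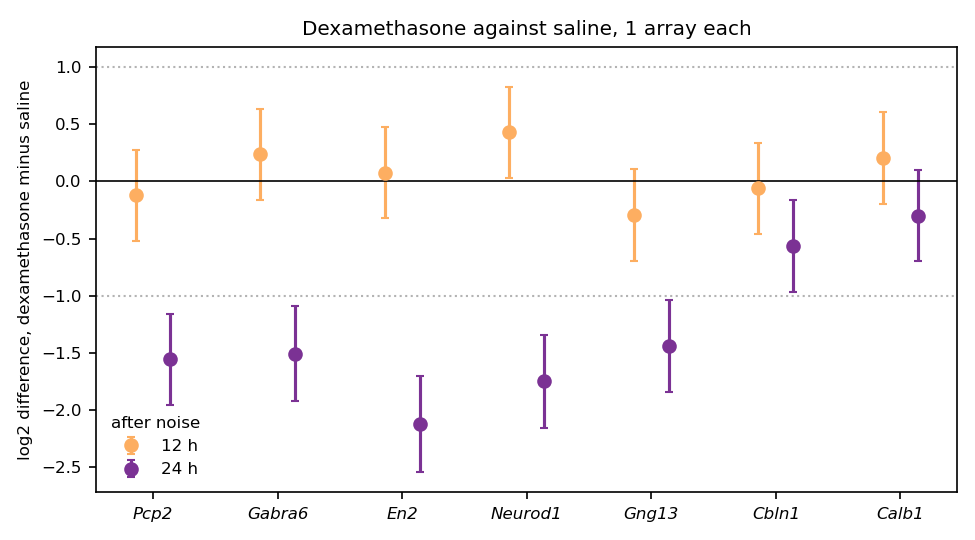
Log2 difference of dexamethasone from saline at 12 h and at 24 h after noise for each of the 7 genes, with spot error intervals and a line at 0. The differences lie between -0.29 and 0.43 at 12 h and between -2.13 and -0.30 at 24 h.

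The partners of the members within their own families did not all follow them. For these and the lists that follow, 2.64% of all genes measured were at least 2-fold above baseline after noise only and 3.17% as far below. The lists were chosen with earlier results of these data known. Of 14 other GABA-A receptor subunits, 11 were measured after noise only and at baseline, of which 4 were higher and 1 lower by 2-fold or more. By any amount, 6 of the 11 were higher, and the median log2 difference was 0.61. Gabrd, the delta subunit that pairs with alpha6 in granule cells, had signals of 4066 after noise only, 3414 with dexamethasone and 3145 with saline at 12 h, 419 with dexamethasone and 817 with saline at 24 h, and 447 at baseline. That is 8.61-fold above baseline after noise only and 0.51 times the saline level with dexamethasone at 24 h. Of the subunits best known elsewhere, Gabra3 was at 0.34 times its baseline level after noise only and Gabrg1 at 0.69 times. Both lay on the lower side, and the higher subunits other than Gabrd are not named.

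Among 8 other genes of the cerebellin system, 6 were measured after noise only and at baseline, of which 3 were higher and 1 lower by 2-fold or more. Cbln3, which assembles with Cbln1 in granule cells, was 13.1-fold above baseline after noise only, 9.24-fold with dexamethasone and 7.42-fold with saline at 12 h. Cbln4, a cerebellin better known outside the cerebellar cortex, was well above background only at baseline and with dexamethasone at 24 h, and after noise only it was at least 6.44-fold lower than baseline.

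Of 7 NeuroD and Atoh relatives, 3 were measured after noise only and at baseline, and Neurod2, which granule cells also make, was the 1 at least 2-fold higher. It was 5.23-fold above baseline after noise only, 2.78-fold with dexamethasone and 2.71-fold with saline at 12 h. Neurod6, a factor of forebrain neurons, passed background on 2 of 6 arrays, and Atoh1, the factor that specifies granule cell precursors and hair cells, on 2 of 6. Atoh7, known from retinal ganglion cells, lay at 1.15 times baseline after noise only.

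Of 7 genes of the engrailed and midbrain-hindbrain boundary list, 4 were measured after noise only and at baseline and 0 were 2-fold apart. Pax5 was at 0.80 times baseline, Wnt1 at 0.84 times and Lmx1b at 0.93 times. En1, the paralog of En2, was named after its values were seen and passed background on 0 of 6 arrays. No measured gene of that list differed as En2 did.

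Of 5 other EF-hand calcium buffers, 3 were measured after noise only and at baseline and 0 were 2-fold apart. Calb2, found in cochlear hair cells and ganglion neurons as well as in granule cells, was at 1.14 times baseline, Pvalb at 1.17 times and the hair cell gene Ocm at 1.5 times. Of the calcium buffers measured on both arrays, Calb1 was thus the one past 2-fold after noise only. Of 11 G protein gamma and GoLoco genes, 10 were measured in this comparison and 0 were 2-fold apart, with a median of -0.29, and the broadly neuronal Gng3 and Gng7 had values of 0.99 and 1.00 times baseline.

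The wider cerebellar lists were higher after noise only as well, in a comparison where 2.64% of all genes were at least 2-fold higher. Of 20 other Purkinje cell genes, all measured, 19 were higher than at baseline and 10 at least 2-fold higher, with a median of 1.04. Ppp1r17, an inhibitor of protein phosphatases in Purkinje cells, was 9.23-fold above baseline, Car8, which restrains the IP3 receptor, 7.28-fold, and the LIM homeodomain genes Lhx1 and Lhx5 were 8.95-fold and 9.63-fold above it. Of 20 other granule cell genes, 17 were measured, 15 were higher and 14 at least 2-fold higher, with a median of 1.53. Crtam was 13.3-fold above baseline, the NMDA receptor subunit Grin2c 6.86-fold, and Barhl2, not well above background at baseline, at least 9.33-fold. Several genes stand in more than one list, such as Pvalb, Cbln3, Neurod2 and Calb2, and the cochlea itself makes Pvalb and Calb2.

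At 12 h the same lists had medians over baseline of 0.74 with dexamethasone and 0.44 with saline for the Purkinje genes, and of 1.33 with dexamethasone and 0.99 with saline for the granule genes. At 24 h the medians over baseline were -0.15 with dexamethasone and 0.01 with saline for the Purkinje genes, and -0.25 with dexamethasone and 0.14 with saline for the granule genes. Dexamethasone against saline at 24 h gave 6 of 19 Purkinje genes higher and 2 of 16 granule genes higher, with medians of -0.32 and -0.37. With spike-in scaling the saline medians over baseline were -0.36 at 12 h and -0.25 at 24 h for the Purkinje genes, of the other sign, and 0.19 at 12 h and -0.11 at 24 h for the granule genes, while both lists kept their sign after noise only and with dexamethasone. Against saline at 24 h, Ppp1r17 was with dexamethasone at 0.29 times its saline level, Car8 at 0.43 times and Crtam at 0.26 times. Past 2-fold in this comparison were 3 Purkinje genes lower and 1 higher, Kcnab1 at 2.02 times its saline level. Of the granule genes, 3 were lower and 0 higher by 2-fold or more. Of all genes, 1.53% were that far lower and 1.63% that far higher.

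Cerebellar interneurons and Bergmann glia, the other cells of the same cortex, did not share the pattern as a list. Of 10 of their genes, 9 were measured after noise only and at baseline, 5 were higher, and past 2-fold lay 2 on the higher and 1 on the lower side, with a median of 0.10. Slc6a5, the glycine transporter of inhibitory neurons in the cerebellum and hindbrain, was at 0.14 times its baseline level after noise only. It also stands in the list of hindbrain genes outside the cerebellum. Fabp7, a fatty acid binding protein of Bergmann and other glia, was at 0.58 times baseline. Both named genes lay on the lower side, and the 5 higher ones, 2 of them past 2-fold, are not named.

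Genes of other brain cells were compared because the cerebellum is not the only brain tissue near the cochlea. Of 8 central oligodendrocyte genes, 0 were higher than baseline after noise only, with a median of -0.87, and the medians at 12 h were -1.48 with dexamethasone and -1.48 with saline. The myelin gene Mobp was at 0.68 times baseline after noise only and the oligodendrocyte factor Olig1 at 0.38 times. Of 8 astrocyte genes, 4 were higher after noise only, with a median of -0.12, and Gfap was at 0.66 times baseline. Of 10 hindbrain genes outside the cerebellum, 7 were measured and 1 was higher, with a median of -0.39.

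Of 10 forebrain neuron genes, 6 were measured after noise only and at baseline, 4 were higher and 1 at least 2-fold higher, with a median of 0.30. Their defining factors were near background: Neurod6 was well above it on 2 of 6 arrays, Tbr1 on 1 and Emx1 on 1. Lamp5 was instead well above background at baseline and on both 24 h arrays, and at least 38.9-fold lower than baseline after noise only. Of 8 choroid plexus genes, 1 was higher after noise only, with a median of -0.85, and Ttr, the carrier protein made in bulk by the choroid plexus, had signals of 735 after noise only, 816 with dexamethasone and 645 with saline at 12 h, 27797 with dexamethasone and 923 with saline at 24 h, and 29374 at baseline. Ttr was bright where most members were dim, except with saline at 24 h, where it was dim too.

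The summed signal of the 7 members was 75344 after noise only, 51951 with dexamethasone and 49584 with saline at 12 h, 7370.0 with dexamethasone and 13650.3 with saline at 24 h, and 8704 at baseline. The summed signal of the 20 Purkinje genes was 262775 after noise only, 197555 with dexamethasone and 197436 with saline at 12 h, 144351 with dexamethasone and 142798 with saline at 24 h, and 153181 at baseline. The summed signal of the 20 granule genes was 63129 after noise only, 43485 with dexamethasone and 31439 with saline at 12 h, 18383 with dexamethasone and 23102 with saline at 24 h, and 21349.8 at baseline. All 3 sums put the same 3 arrays on top, but Aldoc and Pvalb carried most of the Purkinje sum. Without them it was 87104 after noise only, 54883 with dexamethasone and 42945 with saline at 12 h. It was 39141 with dexamethasone and 38427 with saline at 24 h, and 42434 at baseline. All these sums are of unscaled signal, and the 75th percentile was 537 with saline at 12 h and 643 at baseline. On the scaled levels the members summed to 88.3 with dexamethasone and 92.4 with saline at 12 h, the reverse of the unscaled order. The part of cerebellar tissue collected with the cochlea in the differences of the 7 genes was not tested.

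Cochlear lists differed less between the arrays than the members did. Of 14 spiral ganglion neuron genes, 5 were higher than baseline after noise only and 0 were 2-fold apart, with a median of -0.22. The median at 12 h was -0.48 with dexamethasone and -0.70 with saline. At 12 h, 1 was at least 2-fold higher and 0 lower with dexamethasone, and 0 were higher and 3 lower with saline. The neurofilament Nefm was at 0.61 times baseline and Tubb3 at 0.73 times after noise only. Of 14 hair cell genes, 13 were measured, 12 were higher and 0 were 2-fold apart, with a median of 0.44. Pou4f3, the hair cell survival factor, was at 1.21 times and Ush1c, of the hair bundle, at 2.00 times, just under the size used for counting. At 12 h, 1 hair cell gene was at least 2-fold higher and 0 lower with dexamethasone, and 1 was higher and 2 lower with saline. Of all genes, 4.55% were that far higher and 2.65% lower with dexamethasone, and 4.41% higher and 3.42% lower with saline. With saline at 24 h, 1 spiral ganglion gene was that far lower (1.71% of all genes) and 1 hair cell gene that far higher (1.72%). Since Gng13 also marks chemosensory cells, 7 of 10 taste and olfactory genes that were measured are given: 1 was higher after noise only, with a median of -0.23, and Omp, the olfactory marker protein, was at 0.16 times baseline.

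Tissues outside the cochlea differed between the arrays as well. Relative to baseline, the skeletal muscle list (12 genes) had medians of 0.73 after noise only, 1.39 with dexamethasone and 1.92 with saline at 12 h, 0.31 with dexamethasone and 0.92 with saline at 24 h. The mucosal and salivary gland list had medians of -0.27 after noise only, 2.14 with dexamethasone and 1.21 with saline at 12 h, -0.19 with dexamethasone and -0.55 with saline at 24 h. The pituitary list had medians of -2.19 after noise only, -0.13 with dexamethasone and 0.26 with saline at 12 h, 1.77 with dexamethasone and -2.50 with saline at 24 h, and Prl was 70.1-fold higher with dexamethasone than with saline at 24 h. In these medians, no list put noise only and both 12 h arrays together on top as the 7 genes did. With spike-in scaling the skeletal muscle list did so narrowly, and the mucosal and pituitary lists did not. The muscle medians over baseline were then 0.67 after noise only, 0.90 with dexamethasone and 1.13 with saline at 12 h. At 24 h they were -0.06 with dexamethasone and 0.66 with saline. The part of these 3 lists in the result was not tested.

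**Figure D3:**
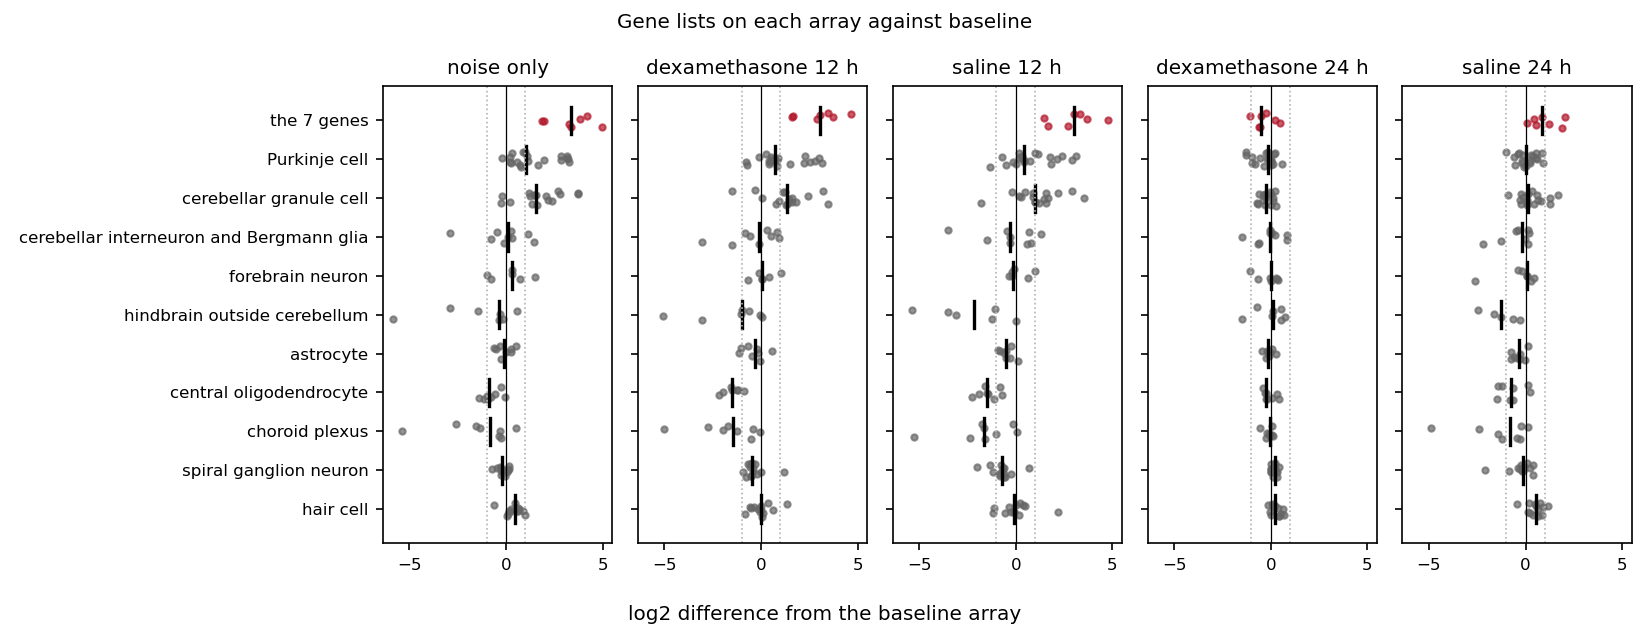
Log2 difference from the baseline array for the measured genes of 11 lists, in 1 panel for each of the other 5 arrays, with 1 point per gene, a black bar at each list's median and dotted lines at 2-fold. The 7 genes (red, top row) have a median of 3.38 after noise only, above the Purkinje list at 1.04 and the granule list at 1.53, while the central oligodendrocyte list stands at -0.87.

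Genes outside the set were ranked by how near their profiles over the 6 arrays lay to the mean profile of the 7. Nearness was the root mean square difference of centred log2 levels, with a median of 1.52 over 16422 candidate genes. Clone and accession names were left out of the candidates. The nearest were Gabrd at 0.16, Lhx1os at 0.18, Arhgef33 at 0.18, Mybpc3 at 0.20, Lhx1 at 0.24, Slc1a6 at 0.25, Crtam at 0.26, Cd70 at 0.28, Grin2c at 0.28 and Cbln3 at 0.31. Of these, Gabrd, Lhx1, Slc1a6, Crtam, Grin2c and Cbln3 stood in the lists above, and Lhx1os is the transcript opposite Lhx1. Cd70 passed background on 3 of 6 arrays, so its lower values are bounds.

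Slc1a6, the glutamate transporter of Purkinje cells, had signals of 5325 after noise only, 5112 with dexamethasone and 4383 with saline at 12 h, 605 with dexamethasone and 965 with saline at 24 h, and 699 at baseline. Arhgef33, which is named here only for its profile, had signals of 464 after noise only, 367 with dexamethasone and 345 with saline at 12 h, 28.5 with dexamethasone and 76.1 with saline at 24 h, and 41.2 at baseline. Mybpc3, known as a myosin binding protein of heart muscle, had signals of 1722 after noise only, 961 with dexamethasone and 762 with saline at 12 h, 119.9 with dexamethasone and 342 with saline at 24 h, and 136 at baseline. In all 3 the noise only and 12 h arrays were on top, as in the members.

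The members themselves lay at 0.21 for Gng13, 0.25 for Neurod1, 0.27 for Gabra6, 0.36 for En2, 0.57 for Cbln1, 0.63 for Pcp2 and 0.79 for Calb1 from their own mean profile. Cbln1 and Calb1 stood off because they varied less and Pcp2 because it varied more. A profile over 6 arrays holds few values, and likeness here is a description of these arrays.

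**Figure D4:**
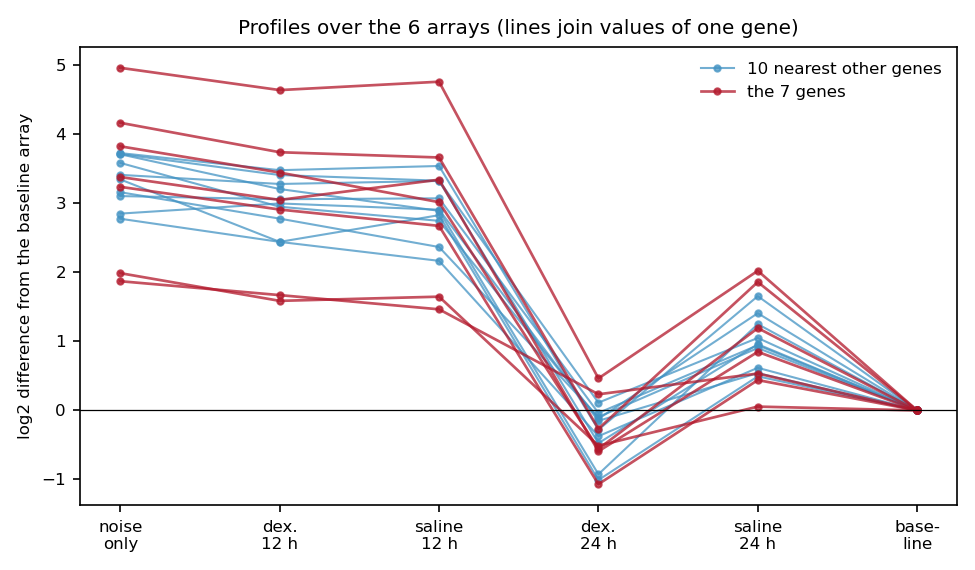
Log2 difference from the baseline array on the 6 arrays for the 7 genes (red) and the 10 nearest genes outside the set (blue), each line joining the values of 1 gene. The mean over the 7 genes is 3.35 after noise only, 3.01 with dexamethasone and 2.94 with saline at 12 h, -0.33 with dexamethasone and 0.99 with saline at 24 h.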

How the data were processed

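Cochlear RNA of 6 groups was hybridised to 1 one-colour Agilent array each. The authors deposited the scanner output, made with Agilent Feature Extraction 10.10.1.1 per the file headers: background-subtracted processed intensity per spot with its error, in which the preset multiplicative part is 10%. A deposited table of log2 values was set against it and used as an alternative.

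Control spots and outlier-flagged spots were left out, spots of a probe were averaged, and log2 of the processed intensity minus each array's 75th percentile was taken. Probes were named through their accession in the RefSeq table (32983 of 56589 matched) or else by the file's name, and a gene took its brightest probe over the 6 arrays. Between 63.0% and 70.3% of probes were well above background, which with the number of arrays limits precision. Where only 1 of 2 arrays was well above background, a fold is a lower bound, taken against the dim array's lowest signal among probes that passed, or the probe's own signal if higher. With 1 array per group nothing was tested. The members and all 20 lists were chosen with earlier results of these data known. Genes of a list are named by a rule: up to 4 with the largest range over the 6 arrays among those well above background on at least 1. Some named genes are not reported here. The 10 nearest genes come from those well above background on at least 3 arrays, with clone and accession names left out. Alternatives were quantile normalization, normexp (offset 50) with quantile normalization, another percentile, spike-in scaling, the deposited table, the mean over a gene's probes, no filter on dim probes, and other fold sizes. Calculations used R 4.3.3, limma 3.58.1, Python 3.11.15, pandas 2.3.3 and numpy 2.4.6.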

Additional observations from a re-analysis of the deposited data

Results flagged for a closer look

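For 4 of the 7 genes the log2 difference of dexamethasone from saline had opposite signs at 12 h and at 24 h. It was 0.24 at 12 h and -1.51 at 24 h for Gabra6, and 0.076 at 12 h and -2.13 at 24 h for En2. It was 0.43 at 12 h and -1.75 at 24 h for Neurod1, and 0.21 at 12 h and -0.30 at 24 h for Calb1. With 1 array per group the difference between the time points was not tested. The 12 h differences of Gabra6, En2 and Calb1 and the 24 h difference of Calb1 were within the spot error. The other 3 genes, Cbln1, Pcp2 and Gng13, had negative differences at both times, and theirs at 12 h turned positive under spike-in scaling. Those of Cbln1 and Pcp2 at 12 h also turned positive under quantile normalization, with or without normexp.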

How the results depend on the processing

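Of 175 summary values recomputed under the alternatives, 168 stayed close to the reported ones, and of 294 differences of single genes 275 did and 19 moved. A sign changed in 11 of these differences, all of Cbln1, Pcp2, Gng13 or Calb1 and none larger than 0.29 on the log2 scale in size as reported. Spike-in scaling lowered the median difference from baseline to 2.56 with dexamethasone and 2.22 with saline at 12 h, and the median of all genes to -0.49 with dexamethasone and -0.73 with saline at 12 h and to -0.35 with dexamethasone and -0.25 with saline at 24 h, so changes there are relative to that shift. Of 20 lists, the median over baseline changed sign under it in 4 with dexamethasone and 6 with saline at 12 h, in 7 with dexamethasone and 4 with saline at 24 h, and in 0 after noise only. Spike-in scaling also gave 5 genes at least 2-fold above baseline with saline at 12 h, beside 0.984% of all genes. With saline at 24 h it gave 2, beside 1.05% of all genes. Members at least 2-fold lower with dexamethasone at 24 h than at baseline numbered 2 with the mean over probes (1.97% of all genes). They numbered 0 with normexp and quantile normalization (0.961% of all genes). The count lower was 2 at 1.5-fold and 0 at 3-fold. The count lower with dexamethasone than with saline at 24 h was 2 at 3-fold. The share of all genes past 1.5-fold or 3-fold was not computed. Counts in the lower direction and differences of single genes were recomputed as alternatives chosen after seeing the data. The causes were not tested. No paired analysis was possible because each group has 1 array, and for the same reason no replicate could be left out.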
